A study of Mus musculus with 10 samples.

Results

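The 31450 H3K4me3 peaks of the study were compared between its WT and Delta cells. They are all the peaks of both H3K4me3 lists, 16038 from WT and 15412 from Delta, among 70826 peaks listed for 4 histone marks. The cells were mCherry+ mesoderm from day 4 embryoid bodies, aggregates in which mouse embryonic stem (ES) cells differentiate, of lines derived from J1 ES cells. The strain label was C57Bl/6 X Sv129 in the first samples and ended in another number in each later one, H3K4me3 included, which is not explained. WT cells (genotype Scl wt) carried Scl:mCherry, in which the reporter marks cells that transcribe Scl and SCL stays functional. Delta cells (genotype Scl d/d) carried the same reporter on Scl alleles lacking the DNA-binding bHLH (basic helix-loop-helix) domain. Drosophila S2 cells were added to both as a spike-in before chromatin immunoprecipitation. The antibody was ab8580 from Abcam. There was 1 H3K4me3 library per genotype, so nothing below has a replicate check and no test across samples was possible. The methods of the study describe sorting single edited cells and expanding them as clones, with the mCherry on 1 allele and the Delta line engineered from the WT reporter line, so each genotype stands for 1 line. Since the sort followed the Scl reporter itself, and each library was a bulk sample, fewer cells carrying the mark and less of it per cell cannot be told apart.

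H3K4me3, trimethylation of lysine 4 of histone H3, is laid down at the start sites of genes by SET1 and MLL methyltransferases. These enzymes are drawn to CpG islands, the stretches of unmethylated DNA rich in CG dinucleotides that cover most housekeeping and many developmental promoters. CpG-poor promoters usually gain the mark only when the gene is active. In ES cells and early progenitors many developmental promoters carry H3K4me3 together with H3K27me3, the mark of Polycomb repressive complex 2, and such bivalent promoters are silent or weakly transcribed. At strongly transcribed and cell identity genes H3K4me3 often spreads downstream into the gene as a broad domain. SCL, encoded by Tal1, is required for all blood formation from mesoderm and binds DNA with E proteins, LMO2, LDB1 and GATA factors.

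The promoters of 7 genes named below are printed first, to show the base composition at their start sites. They are not windows on the peaks themselves, and the Cbfa2t3 window lies outside its peak, which begins 81 bp inside the start. Each sequence covers 300 bases of the mm9 reference, 270 before a coding transcription start site (TSS) and 30 from it on, 5′ to 3′ on the strand of the gene, with every CG dinucleotide in capitals. Gfi1b (chr2:28477473-28477772, minus strand) and Nfe2 (chr15:103085841-103086140, minus strand) had a peak at this start in WT alone. At the Cbfa2t3 start shown (chr8:125222980-125223279, minus strand) the peak was also in WT alone, although another start of the gene kept its peak in Delta. Lyl1 (chr8:87225086-87225385, plus strand) had a peak here in both genotypes that was much the shorter in Delta. Cfc1 (chr1:34592223-34592522, plus strand) had a peak in Delta alone. Gata2 (chr6:88148388-88148687, plus strand) kept long peaks in both genotypes, and Smarcd3 (chr5:24107801-24108100, minus strand) had more H3K4me3 in Delta.
Gfi1b: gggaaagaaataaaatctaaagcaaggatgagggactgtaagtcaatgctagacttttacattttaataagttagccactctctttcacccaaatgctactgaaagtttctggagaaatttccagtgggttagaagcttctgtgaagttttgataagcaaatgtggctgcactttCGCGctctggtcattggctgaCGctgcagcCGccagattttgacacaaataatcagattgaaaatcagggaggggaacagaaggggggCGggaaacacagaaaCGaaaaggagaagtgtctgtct
Nfe2: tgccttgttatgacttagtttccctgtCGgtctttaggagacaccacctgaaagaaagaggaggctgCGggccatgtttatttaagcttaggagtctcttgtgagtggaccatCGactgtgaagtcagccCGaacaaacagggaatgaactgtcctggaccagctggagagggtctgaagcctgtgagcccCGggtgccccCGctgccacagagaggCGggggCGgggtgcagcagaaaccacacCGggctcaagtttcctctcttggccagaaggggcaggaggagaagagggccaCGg
Cbfa2t3: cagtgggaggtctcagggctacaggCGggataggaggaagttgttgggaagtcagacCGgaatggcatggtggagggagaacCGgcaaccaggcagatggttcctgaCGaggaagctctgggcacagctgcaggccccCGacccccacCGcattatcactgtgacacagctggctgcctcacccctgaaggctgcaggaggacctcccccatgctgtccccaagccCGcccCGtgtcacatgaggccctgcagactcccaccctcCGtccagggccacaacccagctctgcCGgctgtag
Lyl1: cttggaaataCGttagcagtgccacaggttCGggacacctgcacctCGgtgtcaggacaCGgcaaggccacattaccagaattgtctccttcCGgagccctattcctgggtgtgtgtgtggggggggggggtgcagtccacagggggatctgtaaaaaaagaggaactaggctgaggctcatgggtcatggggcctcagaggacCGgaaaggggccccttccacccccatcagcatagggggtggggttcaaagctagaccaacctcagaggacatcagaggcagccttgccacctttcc
Cfc1: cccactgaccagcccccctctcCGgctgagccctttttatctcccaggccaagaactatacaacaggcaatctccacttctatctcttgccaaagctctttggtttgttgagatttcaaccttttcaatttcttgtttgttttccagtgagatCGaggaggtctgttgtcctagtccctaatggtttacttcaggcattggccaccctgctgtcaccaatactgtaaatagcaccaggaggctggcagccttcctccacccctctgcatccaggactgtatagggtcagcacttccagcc
Gata2: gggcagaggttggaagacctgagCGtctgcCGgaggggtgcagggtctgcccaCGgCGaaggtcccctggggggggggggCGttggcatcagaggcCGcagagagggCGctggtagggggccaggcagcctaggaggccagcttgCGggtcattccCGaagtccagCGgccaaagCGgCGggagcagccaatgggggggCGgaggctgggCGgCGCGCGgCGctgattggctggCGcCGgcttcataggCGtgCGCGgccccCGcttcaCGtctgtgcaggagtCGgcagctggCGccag
Smarcd3: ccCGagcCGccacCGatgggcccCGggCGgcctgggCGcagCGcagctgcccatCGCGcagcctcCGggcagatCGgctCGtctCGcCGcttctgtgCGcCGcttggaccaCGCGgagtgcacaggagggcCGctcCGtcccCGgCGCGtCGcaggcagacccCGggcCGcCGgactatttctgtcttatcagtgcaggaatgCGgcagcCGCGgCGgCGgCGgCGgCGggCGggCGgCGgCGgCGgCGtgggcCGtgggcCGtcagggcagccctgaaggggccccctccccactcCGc

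The number of CG dinucleotides in these windows was 6 for Gfi1b, 10 for Nfe2, 10 for Cbfa2t3, 6 for Lyl1 and 2 for Cfc1. It was 27 for Gata2 and 44 for Smarcd3. Divided by the number its C and G content would give, the count is called the CpG observed/expected ratio. It ran from 0.112 (Cfc1) to 0.452 (Gfi1b) in the first 5 windows and was 0.726 for Gata2 and 0.973 for Smarcd3. Lyl1 and Cbfa2t3 were genes with H3K4me3 in both genotypes, so the windows shown do not stand for their classes. For whole classes of genes the window was placed at the first coding TSS of each. The median ratio was 0.743 for the 13324 genes with H3K4me3 in both genotypes, 0.423 for those with it in WT alone and 0.365 for those with it in Delta alone. It was 0.185 for the 8645 genes with the mark in neither and 0.523 over all 22359 genes. Genes whose H3K4me3 was at least 1.5 times shorter in Delta had a median of 0.670, and those at least 1.5 times longer had 0.601. CpG-poor promoters were thus met among the genes that lost and among those that gained a listed peak.

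Delta cells had slightly fewer and slightly shorter H3K4me3 peaks than WT cells. The number of peaks was 0.961 times that of WT (95% interval from counting error 0.940 to 0.982). The covered length was 23.01 Mb for WT against 20.9 Mb for Delta (ratio 0.908). On every one of 20 chromosomes both ratios lay below 1, the number ratio between 0.929 (chromosome 1) and 0.983 (chromosome 14) and the length ratio between 0.870 (X) and 0.924 (chromosome 8). Median peak length was 1270 bp against 1197 bp. The median fold enrichment over background was 6.42 and 6.01. Peaks were called in each library against its own input, to a largest q of 0.0482, and the spike-in entered only the scaled read densities, not these calls. A position without a listed peak can therefore still carry the mark. The lists hold no read depths. By the read totals that the study states, which were not used here, Delta was the more deeply sequenced of the H3K4me3 libraries, and its input was the shallower of the inputs.

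Nearly all peaks lay at the same places in both genotypes. Of the WT peaks 14775 (92.1%, 95% Wilson interval 91.7 to 92.5) overlapped a Delta peak by at least 1 bp, and of the Delta peaks 14800 did so (96.0%, 95.7 to 96.3). These intervals, and all others given, cover counting error only. The overlaps formed 14700 groups, of which 14533 (98.9%) paired 1 WT peak with 1 Delta peak. Having a counterpart went with length. In WT the share with a counterpart was 42.8% for peaks under 300 bp, 71.3% from 300 to below 500 bp, 91.4% from 500 to below 1000 bp and 99.5% from 1000 bp on. In Delta it was 65.6%, 84.7%, 96.6% and 99.8%. Within every length class the share was lower for the WT peaks.

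**Figure D1:**
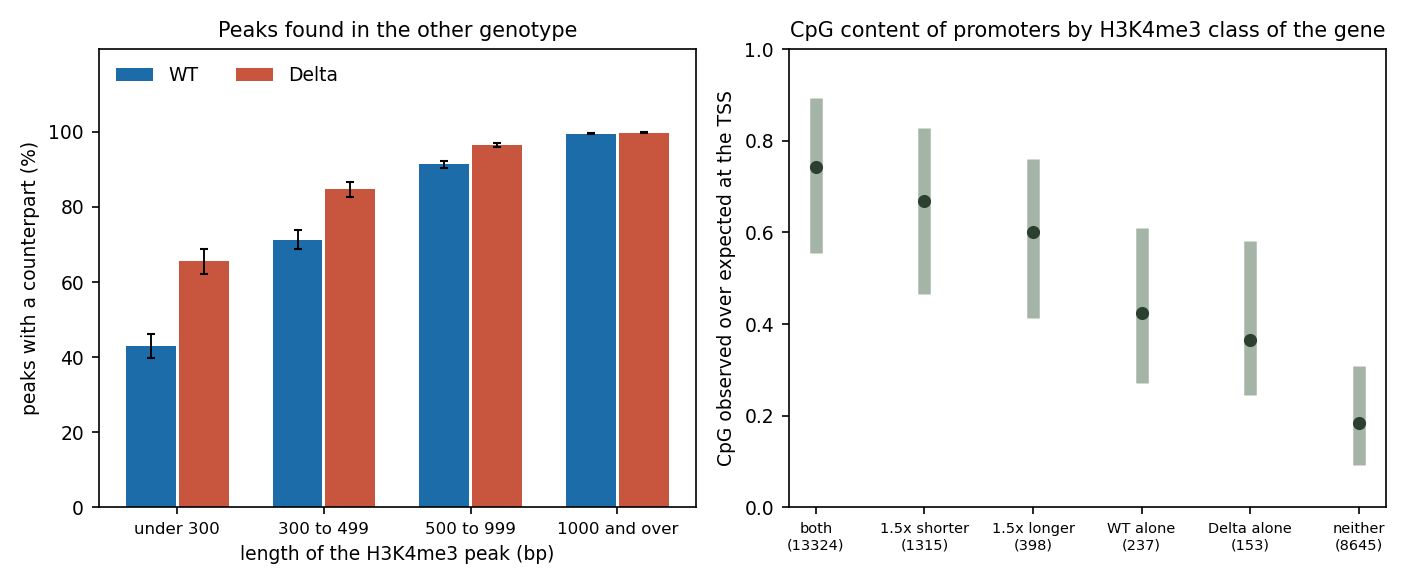
Left, share of H3K4me3 peaks (percent) with a counterpart in the other genotype by peak length class in bp, with 95% Wilson intervals for counting error; the share is 99.5% (WT) and 99.8% (Delta) from 1000 bp on. Right, CpG observed/expected ratio of the promoter window by class of gene, as median and quartiles; medians are 0.743 for genes with the mark in both genotypes, 0.423 for WT alone and 0.365 for Delta alone.

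The 1263 WT peaks without a counterpart were short and weak, with a median of 343 bp and a median fold enrichment at percentile 8.08 of the WT list. The 612 Delta peaks without one had a median of 326 bp. Only 33.4% of these WT peaks and 40.5% of these Delta peaks came within 2500 bp of a coding TSS, against 85.2% and 85.0% of the peaks with a counterpart. Intergenic sites held 35.1% and 30.9% of them, against 7.80% and 7.77%. H3K27ac, the acetylation found at active promoters and enhancers, overlapped 2.93% and 3.59% of them, against 26.6% and 30.8% of the shared peaks. Below 1000 bp this contrast was not seen in WT. There it was 2.87% against 1.02% under 300 bp and 1.66% against 1.67% from 300 to below 500 bp. From 500 to below 1000 bp it was 4.29% against 4.33%. From 1000 bp on it was 3.77% against 37.5% in WT, with 53 peaks lacking a counterpart. In Delta the same classes gave 3.36% against 2.55%, 1.06% against 2.97%, 5.04% against 8.37% and 23.5% against 44.8%. The last of these rested on 17 peaks without a counterpart. H3K27me3 overlapped 36.9% and 45.1%, against 51.8% and 48.4%, but its direction was not the same in every length class. In Delta it was 55.3% against 50.4% from 300 to below 500 bp, and in WT 54.7% against 51.9% from 1000 bp on. In the central 300 bases the median CpG observed/expected ratio was 0.486 and 0.495 without a counterpart, and 0.741 and 0.755 with one.

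GATA words were commoner in the peaks without a counterpart, on both sides. The hexamer AGATAA of the GATA factor motif, its form ending with G (AGATAG), its form opening with T (TGATAA) and the form with both changes (TGATAG) were searched on both strands of the central 300 bases. At least 1 was present in 27.3% of WT peaks without a counterpart and 15.5% of those with one, against 16.4% of all WT peaks. In Delta it was 23.2% and 14.7%, against 15.0% of all. The E-box word CAGATG, which can overlap the forms opening with T by its last letters, was present in 15.8% without and 11.8% with a counterpart in WT, against 12.1% of all. In Delta it was 17.97% and 11.6%, against 11.9% of all. At like lengths the E-box shares of WT lay closer, 16.1% and 14.5% under 500 bp and 15.0% and 13.8% from 500 to below 1000 bp, with overlapping intervals. For the GATA words they were 25.5% and 16.2%, and 31.6% and 15.3%. The windows without a counterpart also had less G and C, with medians of 55.3% against 63.7% in WT and 58.0% against 64.0% in Delta, and the part of this in the counts of AT-rich words was not tested. A match is a run of letters and not a bound site.

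The longest peak in WT without a counterpart, 2891 bp at chr8:125220038-125222928, lay 81 bp inside a start of Cbfa2t3, which encodes the corepressor ETO2 that joins SCL complexes. The nearest Delta peak was 17113 bp away. Next came 2032 bp in intergenic sequence at the proximal edge of assembled chromosome 11, with Sfi1 the nearest gene, and 1978 bp at the start of Nnat, an imprinted gene that lies within Blcap. Nfe2, an erythroid and megakaryocytic transcription factor, followed with 1908 bp at chr15:103084144-103086051. A peak of 1892 bp lay nearest to Hand2, a heart and limb regulator, 11487 bp from its closest coding TSS. The longest in Delta, 1953 bp at chr1:34592423-34594375, covered the start of Cfc1, the Nodal co-receptor Cryptic. It was followed by 1483 bp far from any gene, with Tcfec the nearest at 580398 bp, and by 1367 bp 2570 bp from Cbx8, a Polycomb subunit. The last of these 5 were 1311 bp at Crabp2, a retinoic acid carrier, and 1283 bp near Dlx5, a homeobox gene.

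Where peaks were shared they were on the whole a little shorter in Delta. Over the 14533 pairs of 1 WT and 1 Delta peak the median log2 length ratio (Delta over WT) was −0.10 (quartiles −0.32 and 0.08), and 64.5% were shorter in Delta. The median length went from 1346 to 1234 bp. Of these pairs 1612 (11.1%) were at least 1.5 times shorter in Delta and 686 (4.72%) at least 1.5 times longer. When the pairs were ranked by their geometric mean length and split into 4 equal parts, the median log2 ratio was −0.10 in each. The share at least 1.5 times shorter was 20.3% among the shortest pairs and 4.73% among the longest, and the share longer was 12.5% and 1.02%. Large relative changes of length were therefore mostly those of short peaks.

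Fold enrichment ranked the shared peaks much alike in both lists. Each peak was given its percentile within its own list, which sets aside a common scale. Over the 14533 pairs the Spearman correlation of the percentiles was 0.81, given as a description, since the pairs share 2 libraries and their base composition. The median absolute shift was 10.7 percentile points. In Delta 1901 pairs stood at least 20 points lower and 1429 at least 20 points higher. The shift in rank and the log2 length ratio had a Spearman correlation of −0.01, so a shorter peak was not in general a lower-ranked one.

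A gene was counted as having H3K4me3 when a peak reached to within 2500 bp of a protein-coding TSS, and its H3K4me3 length is the summed full length of those peaks. By this measure 13561 of 22359 protein-coding genes had the mark in WT and 13477 in Delta. It was present in both for 13324, in WT alone for 237 (1.73% of the 13714 with it in either) and in Delta alone for 153 (1.12%). Most genes of both small classes rested on short peaks, with 144 of the 237 and 112 of the 153 under 500 bp. Only 25 and 8 exceeded 1000 bp. Their strongest peaks were weak, with median fold enrichment percentiles of 10.5 in WT alone and 7.32 in Delta alone. Genes marked in both had 62.6 in WT and 61.2 in Delta. In 12 of the 237 and 3 of the 153 a peak was shared but reached within 2500 bp of a TSS in 1 genotype alone. That was so for Rbm15b (3821 bp in WT), 1700067K01Rik (3321 bp), Gm10250 (3134 bp) and Ctrl (2438 bp), the 4 longest of the 237. Nfe2, Nnat, Zic1, a neural crest and somite zinc finger gene (1787 bp), Abi3 (1745 bp), Gfi1b and Igf1 came next, all on unshared peaks. The longest in Delta alone after Cfc1 was Car5a (1886 bp), again on a shared peak, and after it came 4930451C15Rik (1613 bp). With only peaks of fold enrichment of at least 4 counted, the WT-alone and Delta-alone genes numbered 452 and 439, so the excess on the WT side was much smaller there. With only peaks of −log10 q of at least 3 they numbered 432 and 219.

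Among genes marked in both genotypes, shortening was commoner than lengthening. The median log2 length ratio was −0.11 (quartiles −0.32 and 0.06), and 67.1% of the 13324 genes were shorter in Delta. At least 1.5 times shorter in Delta were 1315 genes (9.87%), and at least 1.5 times longer 398 (2.99%). When every peak overlapping a counted peak in the other list was counted too, so that no counterpart was missed for lying beyond 2500 bp, 1295 were shorter and 386 longer. This measure is called the matched count. The calls rested on 1218 and 380 distinct sets of WT peaks, since neighbouring genes can share a peak. With the ratios centred on the median of all genes the split became 928 shorter and 588 longer. The shares over all genes stand as the background for each gene group below. In each group the members in 1 genotype alone and the 3 with the largest ratios were named by rule, and other members were named for their known role after their values were seen.

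**Figure D2:**
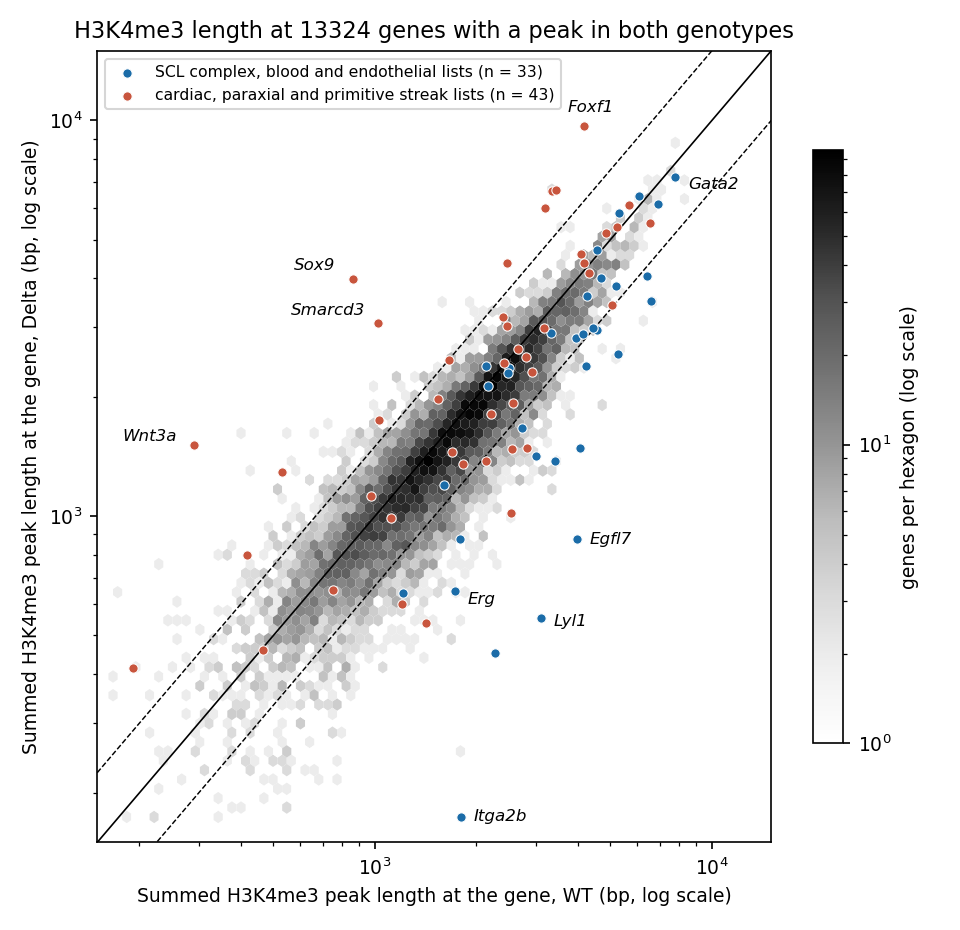
Summed H3K4me3 length per gene in WT (x axis) and Delta (y axis), both in bp on log scales, as shading for the 13324 genes with the mark in both genotypes; dashed lines mark a ratio of 1.5 either way. Blue points are members of the SCL complex, blood and endothelial lists and lie mostly below the diagonal, and red points are members of the cardiac, paraxial and primitive streak lists and lie on both sides.

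All 9 genes of the SCL complex had H3K4me3 in WT, and 8 had it in Delta. Among the 8 with it in both, 2 were at least 1.5 times shorter in Delta, none longer, and the median log2 ratio was −0.10, close to that of all genes (−0.11). By the matched count the median was −0.14, with Tal1 at −0.57. In rank by fold enrichment the 8 genes differed more from all genes. Their median percentile was 67.2 in WT and 46.7 in Delta, against 62.6 and 61.2 over all genes. The median shift was −17.6 percentile points, against −1.58. Gata1, the erythroid GATA factor, had 1129 bp in WT (chrX:7543638-7544766, percentile 11.7 by fold enrichment) and no listed peak in Delta. Lyl1, the close relative of Tal1, had 3110 bp in WT and 553 bp in Delta (log2 ratio −2.49). Its main WT peak ran from −65 to 2704 bp from the start and its Delta peak from −14 to 538 bp, so the start kept the mark. A second Delta peak of 469 bp lay from 2614 to 3082 bp, and with it the matched count gave 3110 and 1022 bp (−1.61). Lmo2, the LIM-domain bridge of the complex, had 4238 and 2393 bp (−0.82). By length the other subunits of the complex, Tal1 aside, lay close to the median. Ldb1, the dimerisation partner of Lmo2, had 6906 and 6154 bp, and Tcf12, an E protein, 2136 and 2404 bp (0.17). Gata2, the GATA factor of early progenitors, kept a long domain of 7796 and 7203 bp.

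Tal1 itself was the gene altered in Delta. Peak positions do not tell whether its bHLH-coding bases were present, so they do not check the deletion. Its locus held 2 peaks in each list. In WT they covered 6092 and 3523 bp, together 9615 bp, and in Delta 4175 and 2283 bp, together 6458 bp. The downstream peak began 6224 bp from the first coding start in WT and 5582 bp from it in Delta, and only in Delta did it come within 2500 bp of a coding TSS. For this reason the gene measure counted 6092 bp in WT against 6458 bp in Delta, and the matched count gave −0.57. The fold enrichment of its strongest counted peak was at percentile 68.0 in WT and 27.96 in Delta.

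Regulators and products of the blood lineage had shorter H3K4me3 in Delta. Of 19 listed genes found in the annotation, 16 had the mark in WT and 14 in Delta, all 14 in both. Of these 14, 8 (57.1%) were at least 1.5 times shorter in Delta, against 9.87% of all genes, and none was at least 1.5 times longer. The median log2 ratio was −0.68 and the median length went from 3484 to 2346 bp. Mecom, a stem cell regulator, was the only member above 0 (4574 and 4699 bp, 0.04).

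The blood genes with the mark in WT alone were Gfi1b, an erythroid repressor (1633 bp), and Nfe2 (2075 bp), both with their CpG-poor starts printed above. Itga2b, the early blood surface integrin CD41, had 1799 bp in WT and 174 bp in Delta (−3.37). That Delta peak had the smallest length in its list and stood at percentile 0.402 by fold enrichment, so the size of this ratio is uncertain. Gypc, an erythrocyte membrane glycophorin, had 2280 and 452 bp (−2.33), and Erg, an ETS factor of blood and endothelium, 1733 and 646 bp (−1.42). These are the largest ratios of the list. Runx1, the master regulator of definitive blood, had 6428 and 4049 bp (−0.67), and Epor, the erythropoietin receptor, 3013 and 1421 bp (−1.08). Klf1, an erythroid factor, had 1783 and 875 bp (−1.03), and Hhex, a homeobox factor of blood and endothelial progenitors, 5251 and 2564 bp (−1.03). Fli1 at 5204 and 3823 bp (−0.44) and Kit at 2162 and 2128 bp (−0.02) did not reach 1.5 times. Spi1, Ptprc and Csf1r, which mark myeloid cells or mature leukocytes, had no H3K4me3 peak in either genotype.

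**Figure D3:**
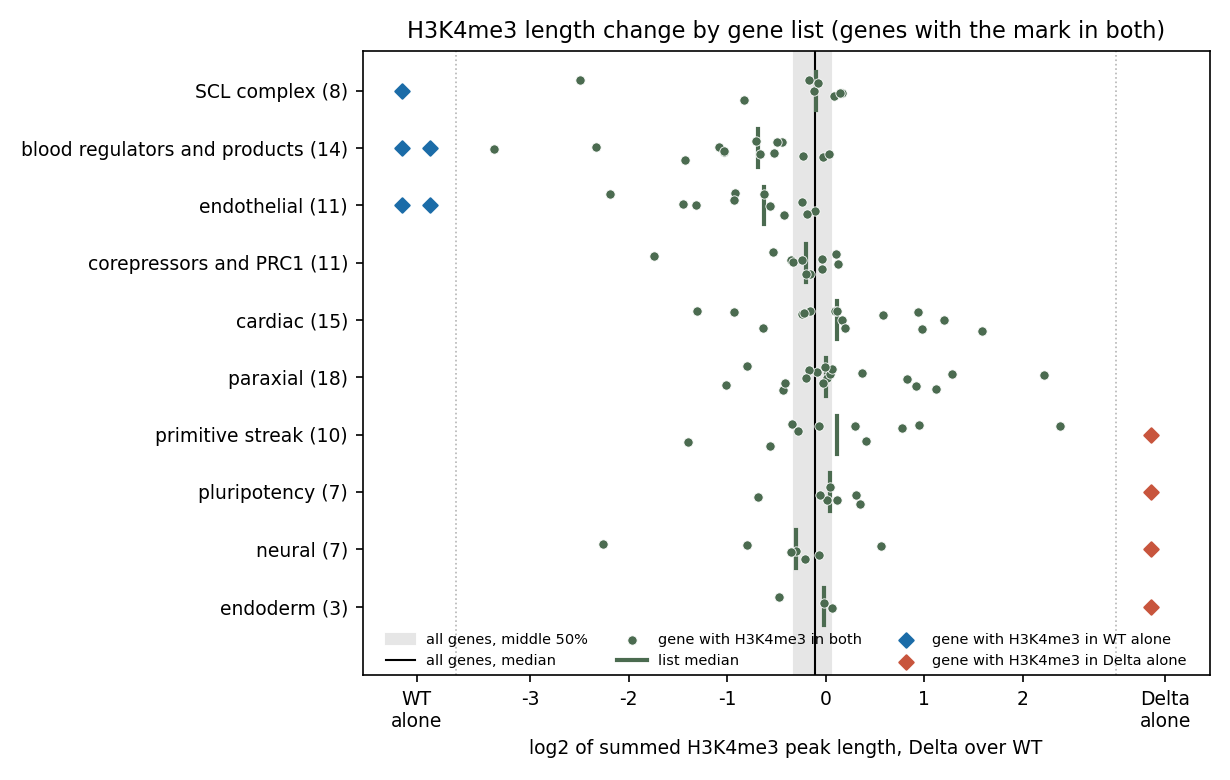
Log2 ratio of summed H3K4me3 length (Delta over WT) for the members of 10 gene lists, each point a gene with the mark in both genotypes, with diamonds for genes with it in WT alone or Delta alone; the line and band are the median (−0.11) and middle 50% of all 13324 genes. Of the blood genes 13 of 14 and of the endothelial genes 11 of 11 lie below 0 (10 by the matched count, Sox17 excepted), whereas the cardiac, paraxial and streak lists lie around it.

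Endothelial genes also had shorter H3K4me3 in Delta. Of 17 listed, 13 had the mark in WT and 11 in Delta, and all 11 with it in both were below 0 (10 by the matched count). At least 1.5 times shorter were 6 (54.5%, against 9.87% of all genes), or 5 by the matched count, and none was longer. The median log2 ratio was −0.62 and the median length went from 3981 to 2297 bp. Tek, the angiopoietin receptor TIE2 (977 bp), and Cdh5, VE-cadherin (884 bp), had the mark in WT alone, at percentiles 7.95 and 16.1 by fold enrichment. Egfl7, a secreted endothelial protein, had 3981 and 874 bp (−2.19), and Esam, an endothelial adhesion molecule, 4058 and 1487 bp (−1.45). Kdr, the VEGF receptor FLK1 of the mesodermal progenitors, had 4547 and 2957 bp (−0.62). Etv2, the ETS factor that acts just upstream of Scl, was among the least shortened (2475 and 2297 bp, −0.11). Sox17, an endothelial and endoderm SOX factor, had 3432 and 1380 bp (−1.31), but 3432 and 3492 bp (0.03) by the matched count. Its ratio was 0.35 when only peaks within 1000 bp of a TSS were counted, and 0.30 when only bases within 2500 bp were. Tie1, Pecam1, Emcn and Notch4 had no peak in either genotype.

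Corepressors of SCL and subunits of Polycomb repressive complex 1 (PRC1) were all marked in both genotypes, 11 of 11. Only Cbfa2t3 was at least 1.5 times shorter in Delta (9.09% of the list, against 9.87% of all genes), with 5112 and 1528 bp (−1.74). The peak inside its upstream start was listed in WT alone, and the peak at its downstream starts covered 2221 and 1528 bp. The median of the list was −0.19. Its median shift in rank by fold enrichment was −15.2 percentile points, against −1.58 over all genes. That shift was −17.6 for the blood list, −5.54 for the endothelial and −8.66 for the neural list. It was −2.06 for the cardiac, 0.94 for the paraxial and −0.42 for the streak list. Pcgf5, a PRC1 subunit, had 1306 and 904 bp (−0.53), and Gse1, a corepressor-associated protein, 8379 and 6552 bp (−0.35). Rybp, the PRC1 subunit that defines its variant forms, had 3406 and 2976 bp (−0.19).

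**Figure D4:**
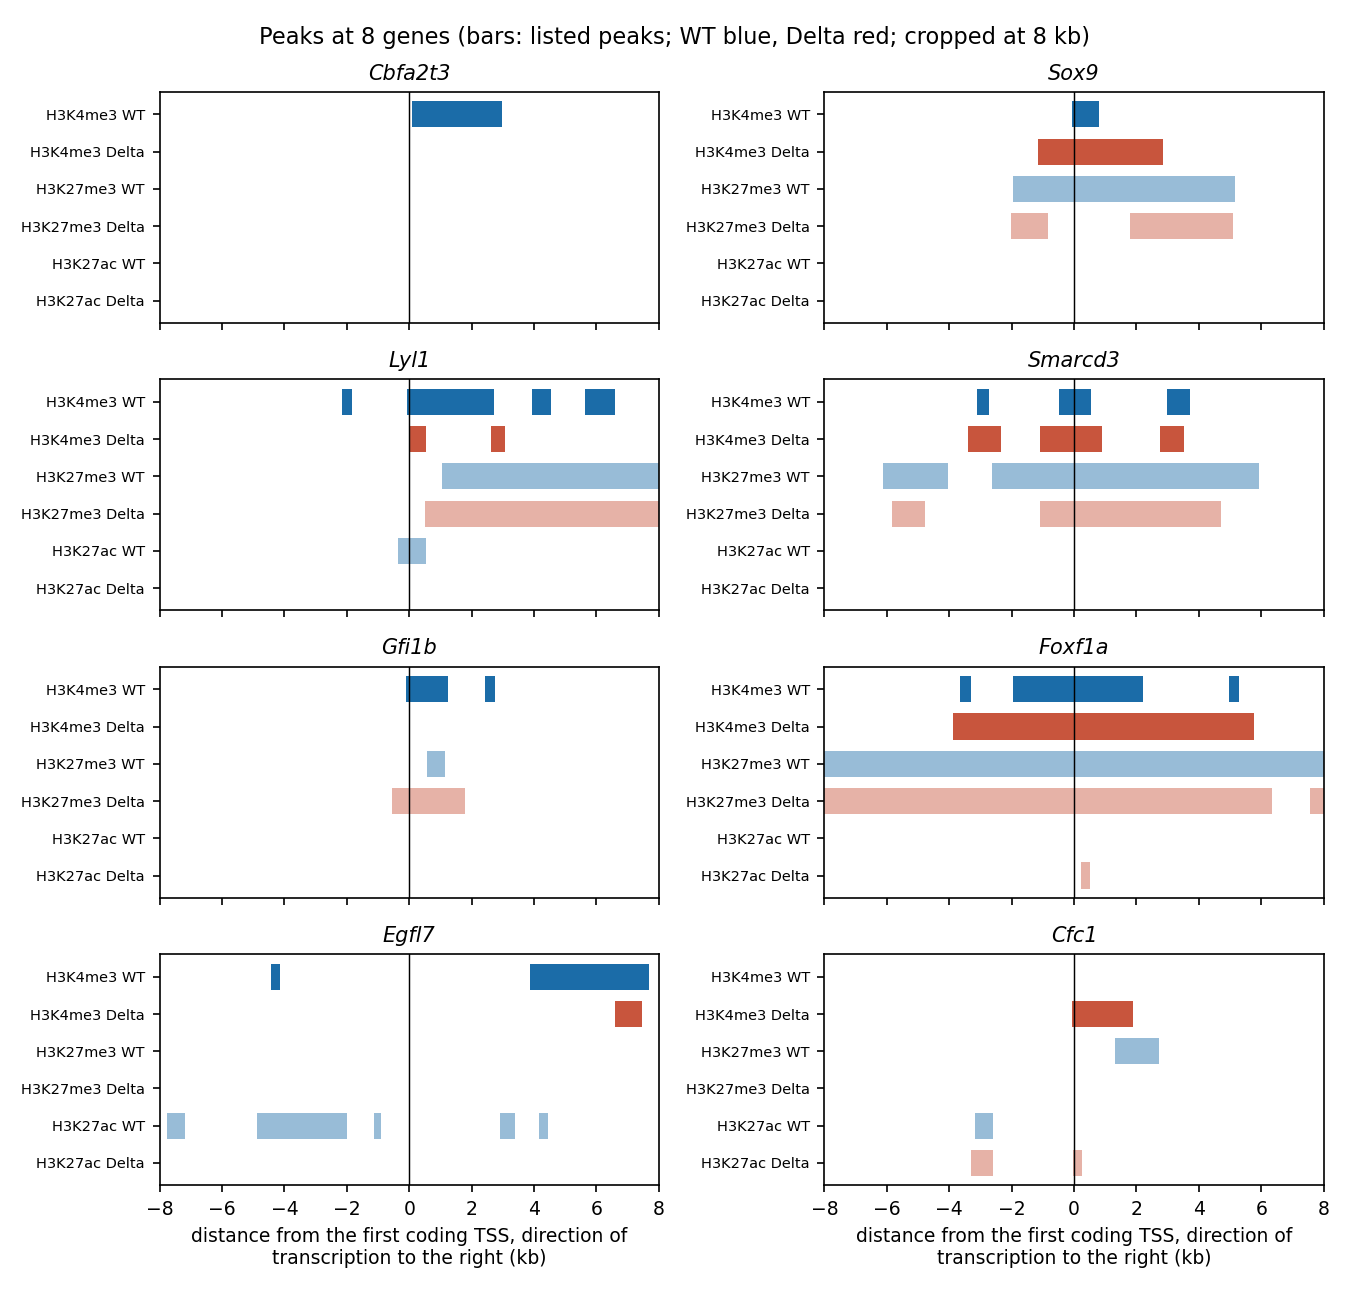
H3K4me3, H3K27me3 and H3K27ac peaks of WT and Delta around the first coding start of 8 genes, in bp from that start along the direction of transcription. H3K4me3 is absent from Delta within the window at Cbfa2t3 and Gfi1b, shorter at Lyl1 and Egfl7, longer at Sox9, Smarcd3 and Foxf1a, and present in Delta alone at Cfc1.

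Cardiac genes showed no common direction. Of 20 listed, 15 had the mark, all 15 in both genotypes, with 3 at least 1.5 times shorter, 4 at least 1.5 times longer and a median log2 ratio of 0.11. Smarcd3, a heart chromatin remodelling subunit, had 1025 bp in WT and 3071 bp in Delta (1.58, or 1.11 by the matched count). Foxf1, a forkhead factor of lateral and splanchnic mesoderm, had 4185 and 9663 bp (1.21), or 0.99 by the matched count, its single Delta peak reaching from −3895 to 5767 bp from the start. Tbx5, a heart and forelimb T-box factor, went the other way with 2528 and 1021 bp (−1.31), or 2528 and 1518 bp (−0.74) by the matched count. Hand1, a heart and extraembryonic mesoderm factor, had 3351 and 6624 bp (0.98), and its fold enrichment stood at percentile 28.9 in WT and 78.2 in Delta. Gata4 (4081 and 4597 bp, 0.17) and Gata6 (6532 and 5516 bp, −0.24), GATA factors of heart and endoderm, were within 1.5 times. The contractile genes Tnnt2, Tnni3, Myh6 and Myh7 had no peak in either.

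Paraxial mesoderm genes were likewise mixed, but the large changes were mostly longer. Of 21 listed, 18 had the mark in both genotypes, with a median of 0.00. At least 1.5 times shorter were 2 (11.1%, against 9.87% of all genes) and longer 5 (27.8%, against 2.99%). Sox9, a regulator of cartilage progenitors, had 859 bp in WT and 3987 bp in Delta (2.21), its peak widening both ways from the start. Pax1, a sclerotome factor, had 532 and 1291 bp (1.28), and Tbx6, a presomitic regulator, 191 and 414 bp (1.12). Pdgfra, a paraxial surface receptor, had 3190 and 6018 bp (0.92).

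Of 13 primitive streak genes, 10 had the mark in WT and 11 in Delta. At least 1.5 times longer were 3 and shorter 1, with a median of 0.11. Cfc1 had no listed peak in WT and 1953 bp in Delta, the most of the 153 genes marked in Delta alone. By fold enrichment this was a weak peak, at percentile 4.65 of the Delta list. Wnt3a, a posterior growth factor, had 290 and 1511 bp (2.38), and Evx1, a posterior streak homeobox gene, 3442 and 6660 bp (0.95). The WT peak of Wnt3a stood at percentile 3.40 by fold enrichment. Nodal, the ligand that Cryptic helps to signal, had 1418 and 538 bp (−1.40). T, the streak factor Brachyury, had 2464 and 3026 bp (0.30).

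Genes of other fates, the pluripotency, endoderm and neural lists, differed from list to list. Of 12 pluripotency genes 7 had the mark in WT and 8 in Delta, with Pou5f1 (OCT4) in Delta alone by a peak of 343 bp and Nanog and Dppa3 in neither. Prdm14 had 1952 and 1216 bp (−0.68), and Klf4 3577 and 4442 bp (0.31). Of 9 endoderm genes 3 had it in WT and 4 in Delta, with Apoa1 in Delta alone by 391 bp and Afp, Ttr and Alb in neither. Of 8 neural genes 7 had it in WT and 8 in Delta. Of the 7 with it in both, 2 were at least 1.5 times shorter (28.6%, against 9.87% of all genes) and none longer. Below 0 were 6 of them, and the median was −0.30, against −0.11 over all genes. Olig2, a motor neuron factor, had 2157 and 451 bp (−2.26, or −1.17 by the matched count), Pax6 had 3249 and 1870 bp (−0.80), and Neurog1 was in Delta alone by 459 bp.

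Over all genes with at least 2000 bp in 1 genotype, the largest shortening by the main measure was at Accn4 (Asic4), an acid-sensing channel gene, with 5094 and 289 bp (−4.14), or 5094 and 931 bp (−2.45) by the matched count. Slc32a1, the vesicular GABA transporter, had 5853 and 455 bp (−3.69), and Nkx2-1, a lung, thyroid and forebrain factor, 2128 and 216 bp (−3.30). The other 7 of the top 10 were Adcyap1, Hic1, Lyl1, Gypc, Olig2, Egfl7 and Hpse2, so 3 were genes of the SCL complex, blood or endothelial lists. The matched count left Slc32a1, Nkx2-1, Gypc and Egfl7 as they were and brought Hic1 to −0.49, Hpse2 to −1.18 and Adcyap1 to −0.25. In Adcyap1 joining peaks up to 3000 bp apart turned the ratio to 0.20. The largest lengthening was at Phox2a, an autonomic neuron factor, with 190 and 2193 bp (3.53), or 472 and 2193 bp (2.22) by the matched count. D730039F16Rik with 456 and 2978 bp (2.71) and Tmem223 with 849 and 3224 bp (1.93) ranked next to Sox9, but both stood at 0.15 by the matched count, since WT peaks beyond 2500 bp overlapped their Delta peaks.

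H3K4me3 was also examined at genes that the study lists as bound by SCL in FLK1+ cells of day 3.5 embryoid bodies and as having lower or higher RNA there without SCL. Those lists rest on other samples, and they hold several genes of the short lists above. Of 505 bound genes with lower RNA found in the annotation, 456 had H3K4me3 in WT and 446 in Delta. The 446 were marked in both, 10 in WT alone (2.19% of 456, against 1.73% of all genes with the mark in either) and none in Delta alone. At least 1.5 times shorter were 97 of the 446 (21.7%, against 9.87%) and longer 12 (2.69%, against 2.99%), with a median log2 ratio of −0.21. Read the other way, 7.38% of the 1315 shorter genes were on this list, which held 3.33% of the 13714 genes with the mark in either genotype.

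The 10 genes of this list in WT alone included Gata1, Gfi1b, Nfe2, Tek and Cdh5. The others were Igf1, insulin-like growth factor 1 (1630 bp), Gngt2 (1513 bp), Rasal1, a RAS GTPase-activating protein (1362 bp), Paqr7 (735 bp) and Pkhd1l1 (203 bp). Besides Asic4, Lyl1, Gypc, Egfl7, Cbfa2t3 and Esam, the largest shortening was at Slc39a8, a zinc transporter (2899 and 945 bp, −1.62), Sdc3, a syndecan (2887 and 1026 bp, −1.49), Irs2, an insulin receptor substrate (9092 and 3344 bp, −1.44, or −1.13 by the matched count), and Slc1a3, a glutamate transporter (2588 and 1005 bp, −1.36). In the opposite direction Crb2, a polarity gene, had 991 and 2315 bp (1.22).

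Bound genes with higher RNA without SCL did not share the shortening. Of 257 found, 215 had the mark in WT and 218 in Delta, 214 of them in both. Rasgrp3 (358 bp) was the only 1 in WT alone (0.457% of 219, against 1.73% of all genes with the mark in either). In Delta alone were 4 (1.83%, against 1.12%), a share near that of all genes. The 4 were Mmp9, a matrix metalloprotease (1153 bp), Mpzl2 (465 bp), Gfra3, a neurotrophic factor receptor (376 bp), and Mfap2, a microfibril protein (362 bp). Among the 214, 11 (5.14%) were at least 1.5 times shorter and 14 (6.54%, against 2.99%) longer, and the median was −0.02. The largest lengthening was at Phldb2 (1527 and 2826 bp, 0.89), Six2, a mesenchyme homeobox gene (2459 and 4366 bp, 0.83), and Adrb1, an adrenergic receptor (1765 and 3020 bp, 0.77). Isl1, a factor of the second heart field, had 1660 and 2481 bp (0.58), and Axin2, a WNT target, 3642 and 5080 bp (0.48). The value of Six2 became −1.06 when peaks up to 3000 bp apart were joined.

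Counted in bp, the shift was larger at the downstream edge of the peaks than at the upstream edge. This was measured at 9113 pairs of 1 WT and 1 Delta peak that held the TSS of a single gene. The median downstream edge lay 1040 bp from the TSS in WT and 962 bp in Delta, with a median shift of −50 bp within pairs, where a minus sign means nearer to the TSS in Delta. The upstream edge lay 432 and 400 bp away, with a median shift of −19 bp. At 390 of these pairs, those of bound genes with lower RNA, the downstream edge went from 1269 to 982 bp (median shift −140.5 bp) and the upstream edge from 422.5 to 403 bp (−30.5 bp). There the downstream edge was at least 500 bp nearer to the TSS in 19.7%, against 7.47% of all pairs. At the 179 pairs of bound genes with higher RNA the median downstream shift was 2 bp, and the edge was at least 500 bp farther out in 8.38%, against 2.02% of all.

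**Figure D5:**
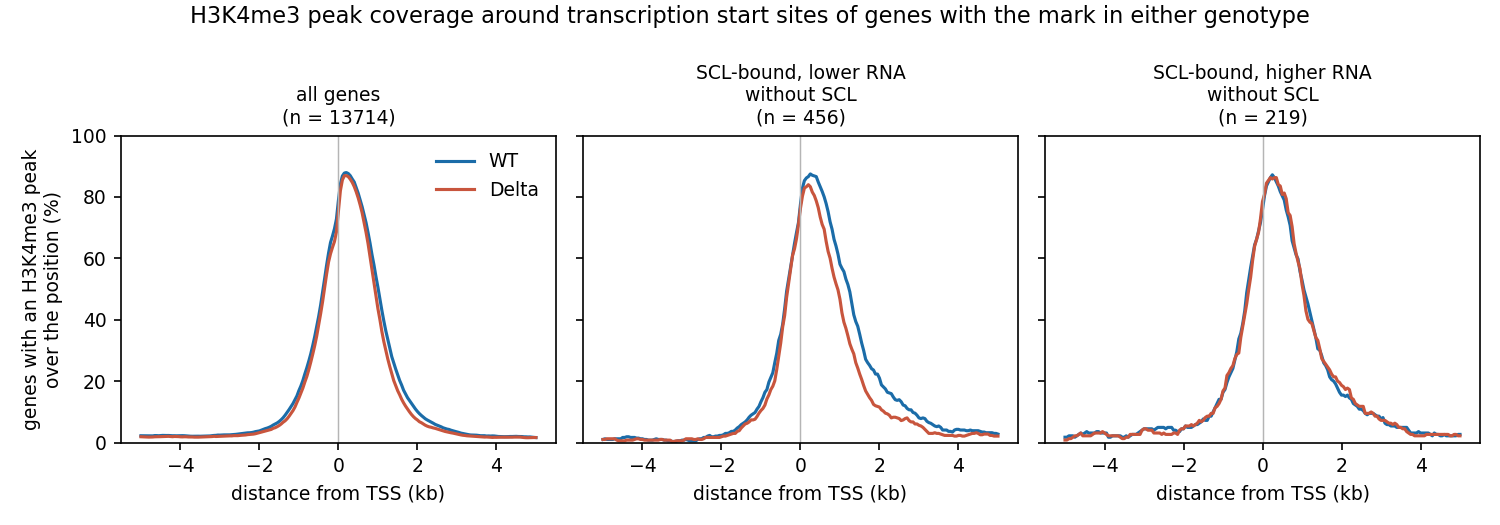
Share of genes (percent) whose H3K4me3 peaks cover a given distance from the first coding TSS, in bp along the direction of transcription, in WT and Delta; panels show all genes with the mark in either genotype and the 2 lists of SCL-bound genes. At 2000 bp downstream the share is 10.2% (WT) and 7.4% (Delta) over all genes and 21.1% and 11.6% over bound genes with lower RNA.

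Coverage around the start sites was also read without pairing peaks. At the TSS itself 78.9% of the 13714 genes were covered in WT and 75.2% in Delta. At 1000 bp downstream the shares were 50.6% and 43.7%, and at 2000 bp 10.2% and 7.44%. Among bound genes with lower RNA the TSS was covered in 77.6% and 76.3%, 1000 bp downstream in 58.1% and 46.7%, and 2000 bp downstream in 21.1% and 11.6%. Among those with higher RNA the shares at 1000 bp downstream were 53.0% and 51.6%, and at 2000 bp 15.5% and 18.7%. At 1000 bp upstream the shares were 13.4% and 10.5% for lower RNA, and 16.4% and 16.9% for higher RNA. Set against the WT share, the fall at 1000 bp was similar upstream and downstream, over all genes and over those with lower RNA. At 500 bp downstream the bound genes with lower RNA were covered in 83.3% and 73.5%. These are shares over genes, and do not show that the same genes stayed covered.

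Broad peaks were fewer in Delta. Peaks of at least 3000 bp numbered 980 (6.11%) in WT and 681 (4.42%) in Delta. All 980 had a counterpart, which was also at least 3000 bp for 560 and shorter for 420. Of the 681 in Delta, 121 had a shorter counterpart in WT. Genes with such a peak at a TSS were 1172 in WT (8.64% of the genes with the mark) and 789 in Delta (5.85%). The count thus fell over all genes, and the list counts that follow are to be read beside that fall. They included 8 blood genes in WT and 3 in Delta, 7 and 2 endothelial genes, 5 and 4 of the SCL complex, 4 and 5 cardiac, 3 and 5 paraxial and 3 and 4 streak genes. Of the bound genes with lower RNA 77 had one in WT and 46 in Delta, and of those with higher RNA 32 and 29.

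The other marks were read beside H3K4me3 at the same genes. Among the 13324 genes with H3K4me3 in both, H3K27me3 was present at 7119 in WT (53.4%) and 6648 in Delta (49.9%). H3K27ac was present at 4412 and 5069, and H2AK119ub, the PRC1 mark, at 1829 and 1022. Of the 19 blood genes 7 had H3K27ac in WT and 1 in Delta, and of the 9 SCL complex genes 8 and 4, while the count over those 13324 genes was higher in Delta. Across genes that had the other mark in both genotypes, the length changes of the marks were hardly correlated. The Spearman correlation of the log2 ratio of H3K4me3 with that of H3K27me3 was 0.00 over 5627 genes, with H3K27ac 0.08 over 3666 and with H2AK119ub −0.04 over 842, where the genes share libraries and base composition. Genes with H3K27ac in WT alone (746) had a median H3K4me3 log2 ratio of −0.18, with 13.7% at least 1.5 times shorter and 0.670% longer. Those with it in Delta alone (1403) had −0.08, with 7.63% and 2.42%.

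Single genes with much shorter H3K4me3 did carry more H3K27me3 in Delta in several cases. At Lyl1 the summed H3K27me3 length was 10064 and 18494 bp (WT and Delta), and at Cbfa2t3 3477 and 10930 bp. For Cbfa2t3 this H3K27me3 lay at other starts of the gene. Neither genotype had a listed H3K27me3 peak around the upstream start, where the H3K4me3 peak was in WT alone. Nfe2 had none in WT and 2442 bp in Delta, Gfi1b 577 and 2328 bp, and Esam 1424 and 6362 bp. Others did not follow this. Gypc and Egfl7 had no H3K27me3 in either genotype, but H3K27ac of 2146 and 3924 bp in WT and none in Delta. Gata2, whose H3K4me3 differed little, went from 7106 to 15273 bp of H3K27me3. Among the genes with longer H3K4me3, Sox9 had 7118 and 4492 bp of H3K27me3, Smarcd3 8541 and 5786 bp, and Evx1 5133 bp in WT and none in Delta. Cfc1 had 1390 bp in WT and none in Delta. Six2, with longer H3K4me3 in Delta, had 15158 and 15769 bp. Over all 398 longer genes H3K27me3 was present at 232 in WT and 232 in Delta, with 19 in WT alone and 19 in Delta alone. Over all 1315 shorter genes it was present at 661 and 625, so the named genes do not stand for their classes.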

How the data were processed

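H3K4me3 was measured by spike-in chromatin immunoprecipitation and sequencing in 1 library per genotype, among 10 libraries of 4 marks and 2 inputs, grouped by sample title. The methods of the study describe mapping with Bowtie to mm9 and dm3, removal of duplicates, and broad peaks called per library with MACS2 2.0.10 against the input of the same genotype, without pooling. The deposited lists give each peak's position, a fold enrichment (a ratio made by the authors) and the −log10 of a p-value and a q-value as computed by the authors. These values ranked or filtered peaks within a list. The lists hold no read depths, and the read totals that the study states were not used here.

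Peaks were compared by at least 1 bp of overlap with Python 3.11.15, pandas 2.3.3 and numpy 2.4.6, and bedtools 2.31.1 gave the same counts of peaks with a counterpart. Genes were the 22359 protein-coding genes of GENCODE M1 on NCBIM37 (mm9), and coordinates are 1-based on that build. A gene had H3K4me3 when a peak reached within 2500 bp of a protein-coding TSS. Length ratios of at least 1.5 were counted in each direction, with no test. A symbol with several gene models took the longest. Gfi1 and Sox1, listed among the blood and neural genes, were not analysed here. Some further items are not reported here. Promoter sequences were read from the mm9 genome at GENCODE M1 start sites. Scripts were tested on simulated peak lists.

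Named genes were those in 1 genotype alone and the 3 largest ratios of each of 10 short lists, and the largest ratios, 10 each way, over all genes and the 2 SCL-bound lists, with at least 2000 bp in 1 genotype. The rule also took the 5 longest peaks per list without a counterpart and the 10 genes with most H3K4me3 in 1 genotype alone. The members and the lists were chosen with earlier results of these data known. The alternatives kept only peaks at or above a −log10 q of 3, or at or above an enrichment of 4, or used peaks joined across up to 3000 bp, chromosomes 1 and 8 left out, 50% overlap, a TSS distance of 1000 bp, covered bases in place of full peak lengths, centring, and a fold of 2. A matched count, which also counts the peaks of the other list that overlap a counted peak, was chosen after seeing the data.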

Additional observations from a re-analysis of the deposited data

How the results depend on the processing

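No paired analysis was possible because each genotype had only 1 H3K4me3 library. Over 15 summary results and their alternatives, 66 values stayed, 19 moved and none changed sign. Counts stayed when within 1.5 times the reported count, and most other values when within counting error. The covered length ratio and the rank correlation were held to a small fixed difference. Counts and shares have no sign, so the absence of sign changes concerns ratios and shifts alone. By the rule for counts those after centring stayed, although their split was more even. With a fold of 2 the genes shorter and longer in Delta numbered 366 and 130. Among peaks enriched at least 4 times, the genes in WT alone and Delta alone numbered 452 and 439, the peak number ratio was 0.992, the Spearman correlation of ranks 0.730, the shares of WT and Delta peaks with a counterpart 92.9% and 93.8%, and the CpG observed/expected ratio of WT peaks without one 0.633. From peaks at or above a −log10 q of 3 there were 432 genes in WT alone, the rank correlation was 0.765, the Delta share 96.6% and that CpG ratio 0.590. Joining peaks gave shares of 93.4% and 96.6%, and 50% overlap gave 87.6% and 93.2% with a median log2 length ratio of −0.095. Without chromosomes 1 and 8 the CpG ratio was 0.510. Counting also the counterpart of every counted peak was added after seeing the data. It gave 1295 shorter and 386 longer genes and 225 and 150 in WT alone and Delta alone. Of 679 alternative values for named genes, 600 stayed, 64 moved and 15 changed sign. The sign changed at Neurod1 (−0.060) and Sox6 (−0.20) under both stricter peak thresholds, and at Foxa2 (1.18) under the q threshold. It changed at Top3a (0.11) under the fold threshold and the 1000 bp distance, and with joined peaks at Foxa1 (−1.51), Six2 (−1.06), Adcyap1 (0.20) and Kif16b (−0.021). Sox17 gave 0.35 with the 1000 bp distance, 0.30 with covered bases and 0.025 with counterparts counted, and Top3a 0.31 with the last. Apart from the fewer peaks that a threshold leaves, the cause was not tested. With 1 library a side, no replicate could be left out, and no limit on weak peaks was set from read depth.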
